A study of Mus musculus with 6 samples.

Results

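The integrated stress response and the supply of amino acids were described through 36 genes of the ATF4 pathway, of amino acid synthesis and of amino acid transport. They were chosen by symbol, with earlier results of these data known. The condition was at least 10 counts summed over all libraries, which all 36 met out of 32245 symbols in each count file. The cells were primary cardiomyocytes from hearts of wild type newborn mice. They had received BMP2 together with dorsomorphin (BMP2+DM), BMP2 alone, or PBS as the control, with 2 polyA RNA libraries in each of the 3 groups. BMP2, a growth factor of the TGF-beta family, binds receptor kinases that phosphorylate SMAD proteins. Dorsomorphin is a small molecule that blocks those kinases and is also known to block AMP-activated protein kinase. No group with dorsomorphin alone is described in the labels, so an action of dorsomorphin apart from BMP2 cannot be told apart from one on BMP2 signalling. The sources used here give no dose, duration or age in days. Since separate cultures or animals are not named for the 2 libraries of a group, p-values measure only the spread between these libraries, which may be technical.

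In the integrated stress response, kinases that sense amino acid shortage, misfolded protein in the endoplasmic reticulum, double-stranded RNA or haem deficiency phosphorylate the translation factor eIF2. General protein synthesis then falls, while the Atf4 mRNA is translated more, so that the amount of Atf4 mRNA does not by itself measure how active the ATF4 protein is. ATF4 pairs with C/EBP proteins and raises genes for asparagine, serine and proline synthesis, for amino acid uptake, and for feedback regulators such as Trib3 and Ppp1r15a. In heart muscle the same genes are known to rise when mitochondria are damaged, together with the secreted factors Gdf15 and Fgf21.

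Each library held between 10106667 and 14366042 counts on genes. The cell type label was checked against 10 cardiomyocyte markers, which were all detected, and Myh6, the cardiac myosin heavy chain gene, averaged 13090 ± 5.02 counts per 1000000 (CPM) in BMP2+DM, 12320 ± 111 CPM in BMP2 and 13970 ± 58 CPM in PBS (SD, n = 2 each). Genes of other cells were present too. The summed level of 10 fibroblast markers was 15900 and 16500 CPM in BMP2+DM, 18800 and 19000 CPM in BMP2, and 19000 and 20100 CPM in PBS, and for 10 cardiomyocyte markers it was 26100 and 26500 CPM in BMP2+DM, 23900 and 23700 CPM in BMP2, and 31400 and 30900 CPM in PBS. Sums for 10 endothelial markers ran from 185 to 196 CPM in BMP2+DM, 259 to 271 CPM in BMP2 and 281 to 288 CPM in PBS. For 10 leukocyte markers the range was 63.6 to 65.7 CPM in BMP2+DM, 70.4 to 70.9 CPM in BMP2 and 94.2 to 94.9 CPM in PBS, and for 10 epicardial markers 182 to 202 CPM in BMP2+DM, 166 to 174 CPM in BMP2 and 253 to 263 CPM in PBS. No marker of these lists was at 0 in every library. Markers within a list did not all move alike. In edgeR (adjusted p under 0.05), 8 of 10 cardiomyocyte markers (80%) were lower in BMP2 than in PBS, beside 9.29% of all tested genes. None passed as higher, and Actc1 averaged 3162 CPM in BMP2 and 6763 CPM in PBS. Of 10 fibroblast markers, 3 (30%) rose and 6 (60%) fell in BMP2+DM against PBS, beside 9.38% and 11.5%. The sums cannot tell a change in the number of cells apart from a change in transcript per cell. They moved with treatment, and their part in the results on the 36 genes was not tested. BMP2 1 and PBS 1 stood apart by their share of reads on a pair of ribosomal-repeat models (Gm42418, AY036118), with 2.1% in BMP2 1 and 1.31% in PBS 1, while the other libraries held 0.0702% to 0.0928%.

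A match to the C/EBP-ATF response element, the sequence through which ATF4 and its C/EBP partners are known to act, was sought in the promoter windows of the 36 genes. The motif was written TGATGNAA, where N is any base, and was read on both strands of windows reaching 250 bases before and 50 bases after the gene start in RefSeq (GRCm38.p6). Windows were listed for 30 of the 36 genes, and 11 of their 35 windows (31.4%) held a match, against 1304 of 32851 windows (3.97%) in the whole table. Since the set was chosen as genes of the ATF4 pathway, this share describes the set and is no test of it. Each match is printed with 10 bases on either side and the matched bases in capitals, written so that the motif reads TGATGNAA. For Slc7a11, with a pair of matches facing each other, the gene's own strand is shown. The first 3 genes passed a test in at least 1 comparison of treatments and the remaining 8 did not, of which Fgf21 was not tested.
Pck2: tgtaagatacTGATGTAActttgaaggc
Pycr1: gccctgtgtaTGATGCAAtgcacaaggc
Vldlr: ctaggagcgcTGATGCAActattgctgc
Asns: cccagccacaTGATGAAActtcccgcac
Atf3: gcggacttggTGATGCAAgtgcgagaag
Chac1: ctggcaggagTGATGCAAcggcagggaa
Fgf21: cctggacggaTGATGCAAtgggggggtc
Nupr1: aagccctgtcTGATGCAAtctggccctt
Slc1a4: aggctggagaTGATGCAAcgcaggaggc
Slc7a11: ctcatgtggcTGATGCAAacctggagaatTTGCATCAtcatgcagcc
Trib3: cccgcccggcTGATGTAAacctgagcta
In Pck2, Pycr1 and Vldlr the match began 103, 103 and 200 bases before the start. It lay at positions −23 in Asns, −110 in Atf3 and in Nupr1, −193 in Chac1, −139 in Fgf21, −4 in Slc1a4, −66 and −47 in Slc7a11 and 15 in Trib3, where −1 is the base before the start. Of the 15 genes that passed a test, 14 had a window and 3 of these held the motif. Of those that passed none, 16 had a window and 8 held it. A missing match says only that these letters are not in these windows, and no binding was measured. In GENCODE the matches of Asns, Nupr1 and Slc1a4 lie wholly or partly in an exon of a coding transcript of the gene, and that of Vldlr in an exon of a transcript with a retained intron.

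Pck2 was the gene with the motif that differed both between BMP2 and PBS and between BMP2+DM and BMP2, so the 250 bases before its start are shown on the gene's strand, with the match in capitals. The stretch is chr14:55540016-55540265 on the plus strand (GRCm38.p6), and the match is on the strand opposite to the gene.
Pck2: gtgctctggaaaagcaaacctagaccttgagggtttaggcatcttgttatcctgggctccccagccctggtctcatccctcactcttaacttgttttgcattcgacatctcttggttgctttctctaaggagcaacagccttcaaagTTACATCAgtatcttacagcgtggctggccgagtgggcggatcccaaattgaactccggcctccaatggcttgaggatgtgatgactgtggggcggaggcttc

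Among the 36 genes, levels per kilobase of exon spanned a wide range. In PBS the highest were Atf4, the central transcription factor, with 96.13 ± 4.61 CPM per kb, Slc38a2, a sodium-coupled transporter of small neutral amino acids (SNAT2), with 78.31 ± 2.85 CPM per kb, and Atf5, a related transcription factor, with 65.93 ± 3.98 CPM per kb (SD, n = 2). In BMP2+DM the order at the top differed, since Atf5 stood at 103.1 ± 2.99 CPM per kb, Atf4 at 98.5 ± 5.17 CPM per kb and Slc38a2 at 58.78 ± 2.78 CPM per kb. The gap between Atf5 and Atf4 in BMP2+DM was within the SD of Atf4. At the low end in PBS, Stc2 had 2.457 ± 0.334 CPM per kb, Slc7a11 1.671 ± 0.396 CPM per kb, Cth 1.322 ± 0.204 CPM per kb and Slc7a3 0.6116 ± 0.144 CPM per kb, of which Slc7a11 and Cth overlapped. The transsulfuration gene Cbs had 5 and 1 counts in BMP2+DM, 17 and 10 in BMP2 and 13 and 3 in PBS. For Fgf21, a stress hormone made by liver and muscle, 2 and 8 counts were found in BMP2+DM, 0 and 0 in BMP2 and 2 and 0 in PBS, where a count of 0 allows up to 3 counts in a library. Fgf21 was too low to be tested, and Cbs entered the test mainly through its BMP2 counts.

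**Figure D1:**
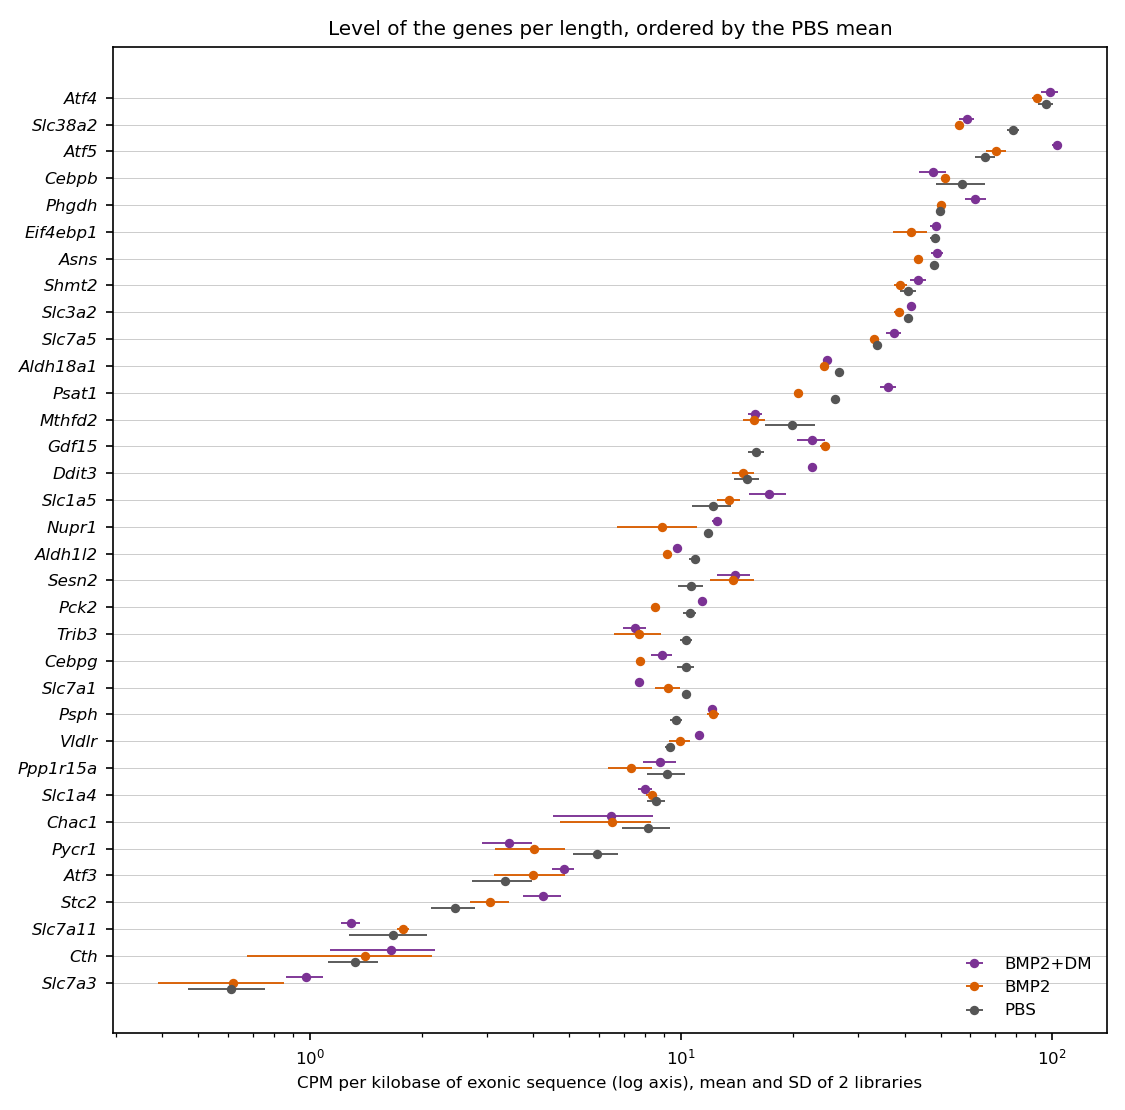
Levels of 34 of the 36 genes per kilobase of exon, on a logarithmic axis of CPM per kb, ordered by the PBS mean. Points are means of 2 libraries and bars are SD, with BMP2+DM, BMP2 and PBS side by side. Cbs and Fgf21, with few counts, are left out. Atf4, Slc38a2 and Atf5 stand highest in PBS, and Slc7a11, Cth and Slc7a3 lowest.

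BMP2 against PBS asks which of these transcripts differ with BMP2 in the cardiomyocyte samples, which also held genes of other cells. Gdf15, a stress cytokine, was 1.535-fold higher with BMP2, while the transporter gene Slc38a2 and the synthesis genes Psat1, Pck2 and Pycr1 were lower. Of 35 tested genes, 2 (5.71%) rose and 5 (14.3%) fell, beside 6.55% and 9.29% of all 14378 tested genes (15.8% in either direction) at the same threshold, an adjusted p under 0.05 in edgeR's quasi-likelihood test. The shares among the 35 genes were near those of all genes for rises and somewhat above them for falls. The median log2 fold change was −0.08, against 0.0044 over all tested genes, with 22 values below 0 and 13 above. Bulk RNA cannot tell fewer cells of a type with high expression apart from less of a transcript per cell. With 2 libraries in a group, non-overlap between groups is common without any change, and it is given below only as description.

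Slc38a2 (chr15:96687392-96699730, minus strand, mm10) had 493 and 497 CPM in BMP2, against 674 and 710 CPM in PBS. Both BMP2 libraries were below both PBS libraries, with a log2 fold change of −0.48 ± 0.05 (SE, adjusted p = 2.76e-06). This call was kept without any single library, and also without both PBS 1 and BMP2 1 (−0.51, adjusted p = 0.00648), the one call of this comparison that held without that pair. The other transporter genes in the set did not pass: Slc7a1, a cationic amino acid transporter, had −0.16 ± 0.08 (adjusted p = 0.202), and Slc7a5 and Slc3a2, the 2 chains of the leucine transporter LAT1, had −0.03 ± 0.07 (adjusted p = 0.852) and −0.08 ± 0.07 (adjusted p = 0.507).

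Psat1, the phosphoserine aminotransferase of serine synthesis (chr19:15904678-15947337, minus strand), had 87.8 and 87.8 CPM in BMP2, against 111 and 109 CPM in PBS. The groups did not overlap, and the log2 fold change was −0.33 ± 0.08 (adjusted p = 0.00561). Psph, the phosphatase that completes serine, lay on the other side with 51.3 and 54.1 CPM in BMP2, against 43.2 and 40.9 CPM in PBS (0.32 ± 0.11, adjusted p = 0.0466). The Psph call was lost without any one of the 4 libraries compared, at 0.28 to 0.36, and 10.4% of its exonic bases overlap Cct6a on the opposite strand, with the strand setting of the counting not given. Phgdh, which starts the pathway, had 123 and 127 CPM in BMP2, against 124 and 124 CPM in PBS (0.01 ± 0.07, adjusted p = 0.935). The 3 enzymes of the serine pathway therefore gave a fall, a rise and a value near 0. Among folate enzymes of the mitochondrion, Shmt2 had −0.07 (adjusted p = 0.614), Mthfd2 −0.33 ± 0.11 (adjusted p = 0.0579) and Aldh1l2 −0.25 ± 0.09 (adjusted p = 0.0701). Of the exonic bases of Aldh1l2, 14.1% overlap D10Wsu102e on the opposite strand.

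Pck2, the mitochondrial phosphoenolpyruvate carboxykinase (chr14:55540266-55551242, plus strand), had 67.2 and 65.6 CPM in BMP2, against 84.8 and 80.1 CPM in PBS. Its log2 fold change was −0.31 ± 0.09 (adjusted p = 0.0195), and the adjusted p was 0.0525 to 0.146 when any one of the 4 libraries was left out. Pycr1, which makes proline in mitochondria (chr11:120635712-120643769, minus strand), had 13.4 and 18.1 CPM in BMP2, against 21.1 and 25.6 CPM in PBS (−0.57 ± 0.18, adjusted p = 0.0456). Its call was lost without PBS 1 (−0.70, adjusted p = 0.0656), PBS 2 (−0.42, adjusted p = 0.314) or BMP2 1 (−0.36, adjusted p = 0.348). Aldh18a1, the enzyme before Pycr1 in proline synthesis, had −0.14 (adjusted p = 0.268). Asns, asparagine synthetase and a standard ATF4 target, had 118 and 121 CPM in BMP2, against 131 and 132 CPM in PBS, and −0.14 ± 0.07 (95% interval −0.29 to 0.01, adjusted p = 0.211).

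Gdf15 (chr8:70629393-70632456, minus strand) had 44.2 and 46.3 CPM in BMP2, against 28.5 and 30.5 CPM in PBS, and the groups were well apart (0.62 ± 0.12, adjusted p = 0.00151). The call held without any single library and was lost without both PBS 1 and BMP2 1 (0.60, adjusted p = 0.125). Stc2, a secreted glycoprotein raised by stress in other cells, had 17.2 and 14.5 CPM in BMP2, against 13.9 and 11.5 CPM in PBS (0.31 ± 0.18, adjusted p = 0.28).

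Of the 7 transcription factor genes, 1 passed, beside 15.8% of all tested genes. This was Cebpg, a dimer partner of ATF4. It had 42.8 and 44.1 CPM in BMP2, against 60 and 55.7 CPM in PBS (−0.41 ± 0.11, adjusted p = 0.0128), and lost its call without PBS 1 (−0.36, adjusted p = 0.124), BMP2 1 (−0.39, adjusted p = 0.0916) or BMP2 2 (−0.44, adjusted p = 0.0569). Atf4 itself had 219 and 210 CPM in BMP2, against 219 and 234 CPM in PBS, with −0.08 ± 0.06 (95% interval −0.21 to 0.05, adjusted p = 0.446). Atf5 (0.10 ± 0.07, adjusted p = 0.416), Ddit3, which encodes CHOP (−0.04 ± 0.13, adjusted p = 0.893), and Atf3 (0.25 ± 0.24, adjusted p = 0.564) did not pass. With all 6 libraries and the filter on low counts, the 6 feedback and effector genes did not pass in edgeR or DESeq2. Of all tested genes, 15.8% passed in edgeR. At an unadjusted p under 0.05, 1 of the 6 was higher and 3 were lower. Values of these 6 genes ran from −0.42 for Trib3, a pseudokinase that restrains ATF4, to 0.37 ± 0.13 for Sesn2, a stress-induced inhibitor of mTORC1 (adjusted p = 0.0556). Sesn2 did pass as higher in other edgeR fits: without the repeat models (0.37, adjusted p = 0.0492), with no filter on low counts (adjusted p = 0.0264), with the 2 compared groups alone (adjusted p = 0.0492), and without BMP2 1 (0.51, adjusted p = 0.0387), BMP2+DM 1 (adjusted p = 0.0421) or BMP2+DM 2 (adjusted p = 0.0452). Mthfd2 passed as lower with no filter (−0.33, adjusted p = 0.0208) and without PBS 1 (−0.48, adjusted p = 0.0234) or BMP2+DM 1 (−0.33, adjusted p = 0.0481), and Nupr1 without BMP2 1 (−0.68, adjusted p = 0.0205).

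**Figure D2:**
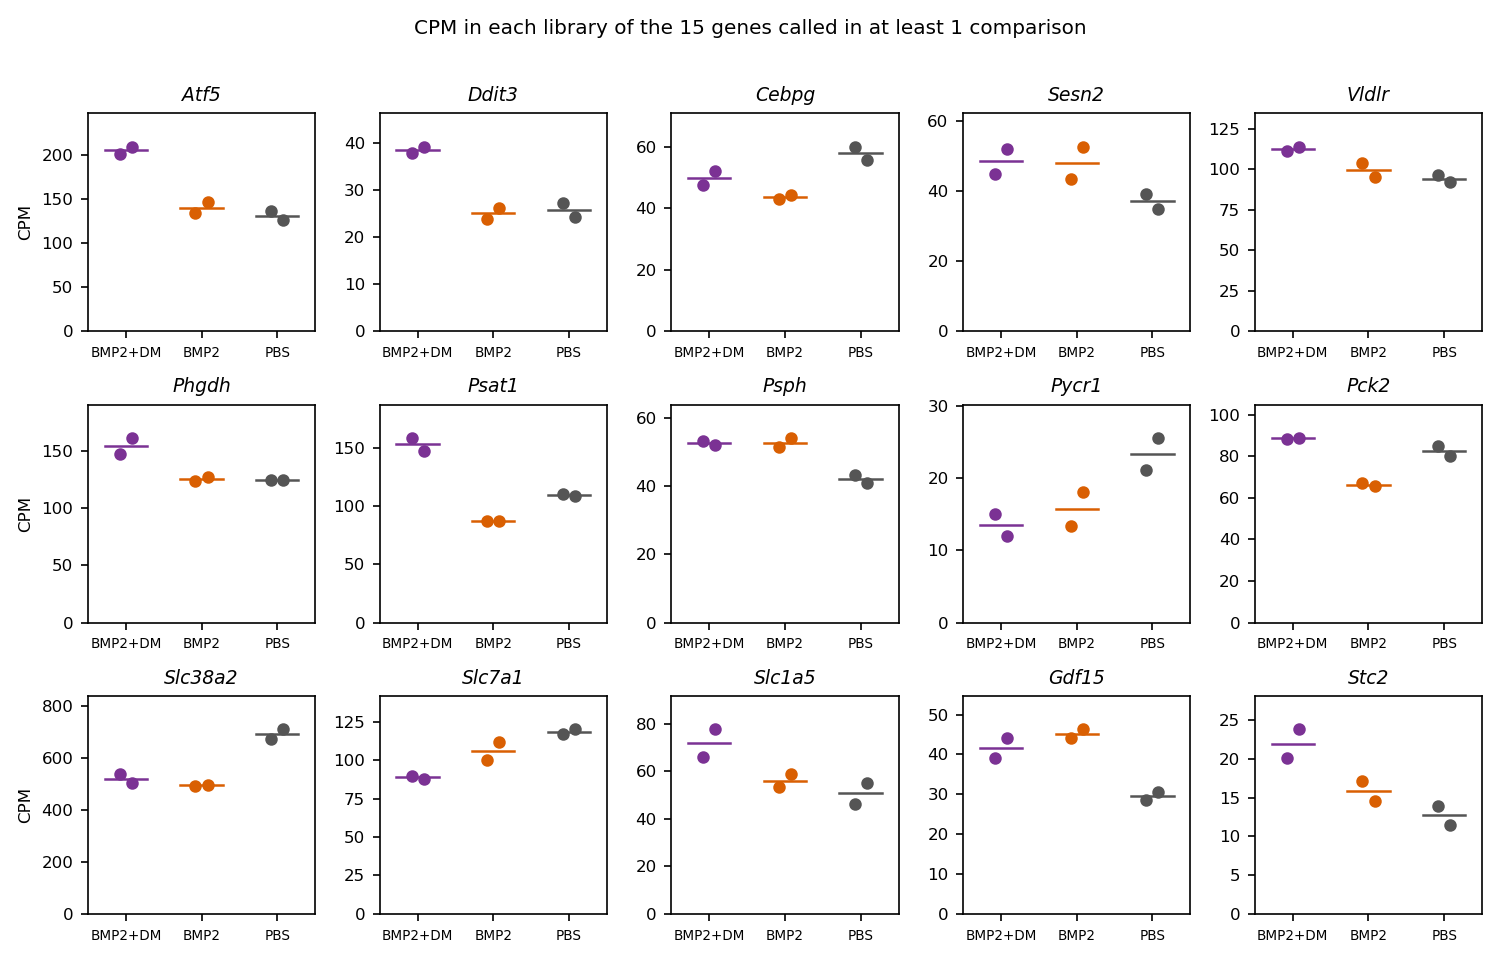
CPM in each library of the 15 genes that passed the test in at least 1 comparison, 1 panel a gene, with BMP2+DM, BMP2 and PBS on the horizontal axis. Points are libraries and bars are the means of 2. Psat1 and Pck2 are lowest in BMP2, Atf5 and Ddit3 are highest in BMP2+DM, and Slc38a2 is highest in PBS.

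BMP2+DM against BMP2 asks what dorsomorphin changes in the presence of BMP2. Genes at several points of the set were higher with dorsomorphin: the transcription factor genes Atf5 and Ddit3, the serine synthesis genes Psat1 and Phgdh, and Pck2. Of 35 tested genes, 5 (14.3%) rose, beside 4.28% of all tested genes (8.73% in either direction). None fell by edgeR's quasi-likelihood test or by DESeq2, beside 4.44% of all tested genes in edgeR, and 3 were lower at an unadjusted p under 0.05. Those 3 were Slc7a1, Slc7a11 and Cbs, of which Cbs entered the test mainly through its BMP2 counts. The median log2 fold change was 0.16, against 0.00035 over all tested genes, with 25 values above 0 and 10 below. These libraries share the BMP2 pair with the previous comparison, so a low BMP2 value enters both.

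Psat1 showed the largest of the called rises. It had 159 and 148 CPM in BMP2+DM, against 87.8 and 87.8 CPM in BMP2, a 1.75-fold difference (log2 0.81 ± 0.08, adjusted p = 1.52e-06). Atf5 (chr7:44812256-44816658, minus strand) had 201 and 210 CPM in BMP2+DM, against 134 and 147 CPM in BMP2, which is 1.459-fold (0.55 ± 0.07, adjusted p = 7.49e-05). Both calls were kept without any single library and without both PBS 1 and BMP2 1, and in both genes every BMP2+DM library lay above every BMP2 library.

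Pck2 had 88.6 and 88.9 CPM in BMP2+DM, against 67.2 and 65.6 CPM in BMP2 (1.337-fold, log2 0.42 ± 0.09, adjusted p = 0.00504), and kept its call without any single library but not without both PBS 1 and BMP2 1 (0.44, adjusted p = 0.106). Ddit3 (chr10:127290774-127296288, plus strand) had 38 and 39.3 CPM in BMP2+DM, against 23.9 and 26.3 CPM in BMP2 (1.538-fold, 0.62 ± 0.13, adjusted p = 0.00587). Without BMP2 1 its value was 0.55 (adjusted p = 0.0757). For Ddit3 the annotation carries 2 gene models of that symbol, and 4.0% of its exonic bases overlap Mars on the opposite strand.

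Phgdh (chr3:98313170-98339990, minus strand) had 147 and 161 CPM in BMP2+DM, against 123 and 127 CPM in BMP2 (1.237-fold, 0.31 ± 0.07, adjusted p = 0.012). The groups did not overlap, but the call was lost without BMP2 1 (0.28, adjusted p = 0.103), BMP2 2 (0.33, adjusted p = 0.0529) or BMP2+DM 2 (0.24, adjusted p = 0.126). Psph, the last enzyme of the pathway, had 53.1 and 51.9 CPM in BMP2+DM, against 51.3 and 54.1 CPM in BMP2 (−0.01 ± 0.11, 95% interval −0.23 to 0.22, adjusted p = 0.982). Shmt2, which takes serine into the mitochondrial folate cycle, had 140 and 131 CPM in BMP2+DM, against 118 and 125 CPM in BMP2 (0.16 ± 0.08, adjusted p = 0.236).

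Atf4 mRNA had 224 and 241 CPM in BMP2+DM, against 219 and 210 CPM in BMP2 (0.12 ± 0.06, 95% interval −0.01 to 0.24, adjusted p = 0.297). Among members that did not pass, Asns had 0.17 ± 0.07 (95% interval 0.02 to 0.32, adjusted p = 0.176), Trib3 −0.04 ± 0.17 (95% interval −0.40 to 0.32, adjusted p = 0.923) and Chac1, a glutathione-degrading enzyme, −0.01 ± 0.25 (95% interval −0.53 to 0.50, adjusted p = 0.982). With the filter on low counts, none of the 8 transporter genes passed in edgeR or DESeq2, beside 8.73% of all tested genes in edgeR. At an unadjusted p under 0.05, 2 were higher and 2 lower. Slc1a5, the glutamine carrier ASCT2, had 65.9 and 77.7 CPM in BMP2+DM, against 53.3 and 59 CPM in BMP2 (0.36 ± 0.12, adjusted p = 0.067), and Slc7a11, the cystine and glutamate exchanger, had 18.7 and 17.2 CPM in BMP2+DM, against 25.5 and 24.2 CPM in BMP2 (−0.47 ± 0.17, adjusted p = 0.106). Gdf15 had 39.1 and 44.1 CPM in BMP2+DM, against 44.2 and 46.3 CPM in BMP2, with −0.12 ± 0.12 (adjusted p = 0.623), and Slc38a2 had 0.07 ± 0.05 (adjusted p = 0.481). Slc1a5 passed as higher with no filter (adjusted p = 0.0174), with a replicate block (0.35, adjusted p = 0.0367) and without BMP2+DM 1 (0.47, adjusted p = 0.0367). With no filter Slc7a1 passed as lower (−0.26, adjusted p = 0.0363) and Nupr1 as higher (0.49, adjusted p = 0.0259), the last also without BMP2 1 (0.76, adjusted p = 0.0187).

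**Figure D3:**
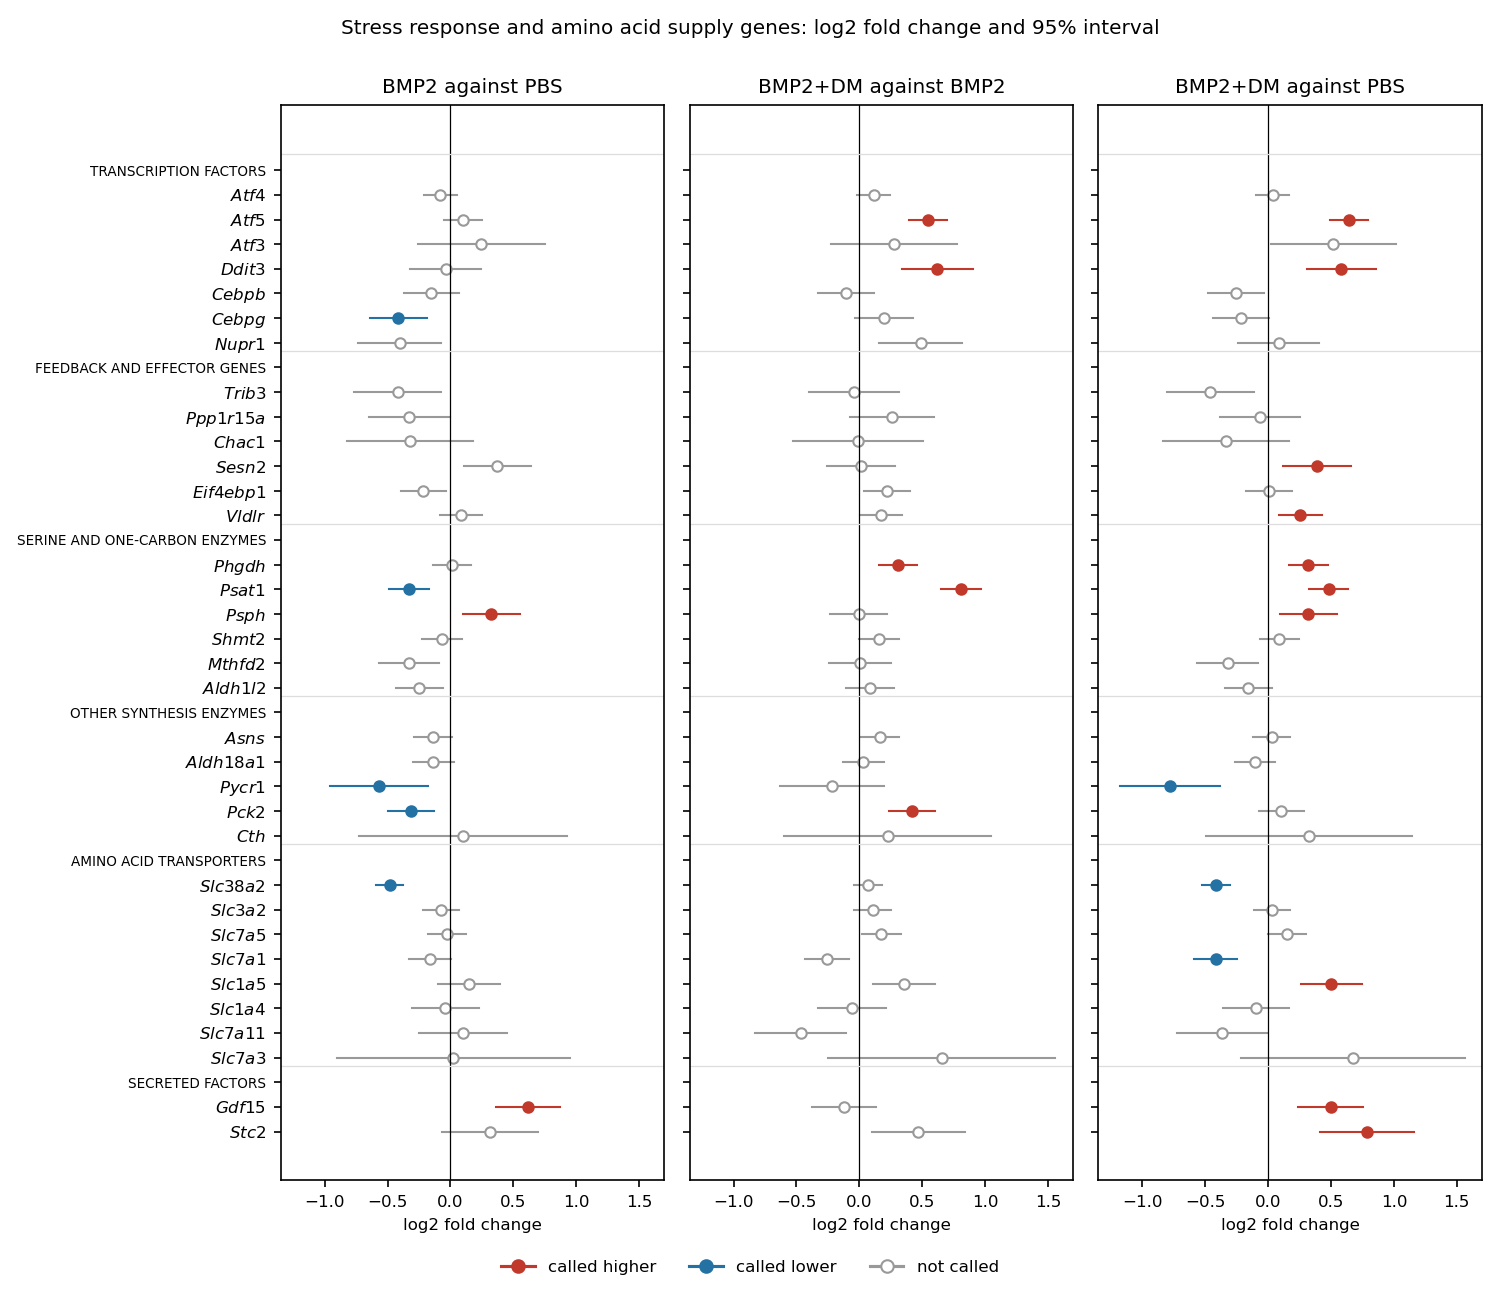
Log2 fold changes of 34 tested genes in the 3 comparisons, 1 panel each, grouped by role, with 95% intervals that are not adjusted for the number of genes. Filled points passed the test at an adjusted p under 0.05. Cbs is left out for its width and Fgf21 was not tested. Psat1, at 0.81, stands farthest to the right among filled points of BMP2+DM against BMP2, and no filled point in that panel lies below 0.

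BMP2+DM against PBS asks which transcripts differ from control cells when both agents are present. Atf5, Ddit3, Psat1 and Phgdh lay above PBS, as did the secreted factors Stc2 and Gdf15 and the glutamine carrier Slc1a5, while the transporter genes Slc38a2 and Slc7a1 and the proline enzyme Pycr1 lay below. Of 35 tested genes, 10 (28.6%) rose and 3 (8.57%) fell, beside 9.38% and 11.5% of all tested genes (20.9% in either direction). The median was 0.04, against 0.00695 over all tested genes, with 21 values above 0 and 14 below. This comparison shares libraries with both others, so its values are given beside theirs and are no separate evidence.

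Atf5 had 201 and 210 CPM in BMP2+DM, against 137 and 126 CPM in PBS (1.563-fold, log2 0.64 ± 0.07, adjusted p = 2.85e-06). Psat1 had 159 and 148 CPM in BMP2+DM, against 111 and 109 CPM in PBS (1.395-fold, 0.48 ± 0.07, adjusted p = 0.000106). Both calls held without any single library and without both PBS 1 and BMP2 1. Ddit3 had 38 and 39.3 CPM in BMP2+DM, against 27.2 and 24.4 CPM in PBS (0.58 ± 0.13, adjusted p = 0.00366, and 0.51 with adjusted p = 0.0549 without PBS 2). Phgdh had 147 and 161 CPM in BMP2+DM, against 124 and 124 CPM in PBS (0.32 ± 0.07, adjusted p = 0.00374, and 0.25 with adjusted p = 0.0565 without BMP2+DM 2). For Pck2, with 88.6 and 88.9 CPM in BMP2+DM and 84.8 and 80.1 CPM in PBS, the difference was 0.11 ± 0.09 (95% interval −0.08 to 0.29, adjusted p = 0.437). Psat1 thus lay above its PBS level with both agents, while for Pck2 no difference from PBS passed the test.

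Among secreted factors, Stc2 had 20.1 and 23.8 CPM in BMP2+DM, against 13.9 and 11.5 CPM in PBS (1.722-fold, 0.78 ± 0.18, adjusted p = 0.0037), with 0.66 (adjusted p = 0.0603) without PBS 2. Gdf15 had 39.1 and 44.1 CPM in BMP2+DM, against 28.5 and 30.5 CPM in PBS (0.50 ± 0.12, adjusted p = 0.00677), and lost its call without PBS 1 (0.45, adjusted p = 0.0739) or BMP2+DM 2 (0.41, adjusted p = 0.0727). In both genes the groups did not overlap. Slc1a5 had 65.9 and 77.7 CPM in BMP2+DM, against 46.4 and 55.2 CPM in PBS (0.50 ± 0.12, adjusted p = 0.00421), and fell short without PBS 1 (0.38, adjusted p = 0.0898) or BMP2+DM 2 (0.38, adjusted p = 0.0656).

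Of the remaining rises, Sesn2 had 44.9 and 51.9 CPM in BMP2+DM, against 39 and 34.9 CPM in PBS (0.39 ± 0.13, adjusted p = 0.0389). Vldlr, a lipoprotein receptor, had 111 and 114 CPM in BMP2+DM, against 96.2 and 92 CPM in PBS (0.26 ± 0.08, adjusted p = 0.0306). Psph had 53.1 and 51.9 CPM in BMP2+DM, against 43.2 and 40.9 CPM in PBS (0.32 ± 0.11, adjusted p = 0.0423). These 3 calls had the highest adjusted p of the 13, and DESeq2 made none of them. Sesn2 lost its call without PBS 1 (0.47, adjusted p = 0.0766), PBS 2 (0.31, adjusted p = 0.244) or BMP2+DM 2 (0.28, adjusted p = 0.251), Vldlr without any one of the 4 libraries compared (0.23 to 0.29), and Psph without any one of the 6.

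The 3 falls were transporters and a synthesis enzyme. Slc38a2 had 537 and 502 CPM in BMP2+DM, against 674 and 710 CPM in PBS (−0.41 ± 0.05, adjusted p = 1.14e-05), close to its level in BMP2. Slc7a1 had 89.8 and 87.8 CPM in BMP2+DM, against 117 and 120 CPM in PBS (−0.42 ± 0.08, adjusted p = 0.00107), with BMP2 between them at 100 and 112 CPM. Pycr1 had 15 and 12 CPM in BMP2+DM, against 21.1 and 25.6 CPM in PBS (−0.78 ± 0.19, adjusted p = 0.00589). The Slc38a2 and Slc7a1 calls held without any single library, and the Pycr1 call was lost without PBS 2 (−0.64, adjusted p = 0.0901) or BMP2+DM 2 (−0.63, adjusted p = 0.0655).

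Against these, Atf4 gave 0.04 ± 0.06 (95% interval −0.09 to 0.16, adjusted p = 0.741) and Asns 0.03 ± 0.07 (95% interval −0.12 to 0.18, adjusted p = 0.843). Trib3 had 15.1 and 16.7 CPM in BMP2+DM, against 21.4 and 22.5 CPM in PBS (−0.46 ± 0.16, 95% interval −0.81 to −0.11, adjusted p = 0.0552). For Cebpb, a C/EBP factor of acute stress, the value was −0.26 ± 0.11 (adjusted p = 0.096), and 20.7% of its exonic bases overlap Tmem189 on the opposite strand. Cebpb passed as lower with no filter (−0.26, adjusted p = 0.0447) and without PBS 1 (−0.41, adjusted p = 0.0264), Slc7a11 without PBS 1 (−0.60, adjusted p = 0.0393) and Trib3 with the 2 compared groups alone (−0.47, adjusted p = 0.0494). Mthfd2, at −0.32 ± 0.11 (adjusted p = 0.0525), passed as lower without the repeat models (adjusted p = 0.0471), with no filter (adjusted p = 0.0204) and without PBS 1 (−0.48, adjusted p = 0.0198) or both PBS 1 and BMP2 1 (−0.48, adjusted p = 0.0459).

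Because the set was chosen with earlier results of these data known, its shares describe it and are no test of it. Over the 3 comparisons, 15 of the 35 tested genes (42.9%) passed at least once, beside 27.9% of all tested genes, and 20 did not. Besides Atf4, Asns, Trib3 and Chac1, these 20 were Atf3, Cebpb, Nupr1, a small chromatin protein of the stress response, the eIF2 phosphatase subunit gene Ppp1r15a, the translation inhibitor gene Eif4ebp1, the enzyme genes Shmt2, Mthfd2, Aldh1l2, Aldh18a1, Cth and Cbs, and the transporter genes Slc3a2, Slc7a5, Slc7a11, Slc7a3 and Slc1a4. The 15 that passed followed 8 patterns of calls. Psat1 was lower with BMP2, higher with dorsomorphin added and higher than PBS with both. Atf5, Ddit3 and Phgdh passed as higher in both comparisons of BMP2+DM and not in BMP2 against PBS. Gdf15 and Psph were higher in both comparisons with PBS, and Pycr1 and Slc38a2 lower in both. When edgeR tested against a minimum fold of 1.5, no gene of the set passed in any comparison. At an unadjusted p under 0.05, that test gave 0 in BMP2 against PBS, 1 higher and 1 lower in BMP2+DM against BMP2, and 1 higher in BMP2+DM against PBS. The lower gene was Cbs, at −2.07. Since Cbs entered the test mainly through its BMP2 counts, its fall against BMP2 is no support for a change.

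The calls were also counted by promoter match. In BMP2 against PBS, 2 of 10 tested genes with the motif fell (median −0.23) and 3 of 19 without it fell and 2 rose (median −0.08). For BMP2+DM against BMP2, 1 of 10 with the motif rose (median 0.08), against 4 of 19 without it (median 0.11), and in BMP2+DM against PBS 1 of 10 rose and 1 fell (median −0.04), against 8 and 2 of 19 (median 0.04). Of all tested genes, 6.55% rose and 9.29% fell in BMP2 against PBS. The shares were 4.28% and 4.44% in BMP2+DM against BMP2, and 9.38% and 11.5% in BMP2+DM against PBS. The counts by match are small, and no difference between the 2 kinds of genes was tested.

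Genes upstream, downstream and beside the set were described through 8 further lists, which were chosen with results of these data known. Of 17 genes for eIF2, its exchange factor eIF2B, its kinases and its phosphatase, 4 rose and 1 fell with BMP2 against PBS, with 1 to 4 rises when 1 library was left out. The 4 rises and 1 fall were 23.5% and 5.88% of the list, beside 6.55% and 9.29% of all tested genes. Eif2ak2, the kinase PKR that senses double-stranded RNA, had 52.1 and 53.2 CPM in BMP2, against 81.8 and 104 CPM in PBS (−0.82 ± 0.11, adjusted p = 4.68e-05), and 46.1 and 46.9 CPM in BMP2+DM (−0.99 ± 0.11 against PBS, adjusted p = 3.86e-06). The other eIF2 kinase genes Eif2ak1, Eif2ak3 and Eif2ak4 passed in no comparison, with values between −0.18 and 0.17. Eif2b1, a subunit of eIF2B, had 55.9 and 57.7 CPM in BMP2, against 36.9 and 42.1 CPM in PBS (0.52 ± 0.11, adjusted p = 0.00311, and 0.43 with adjusted p = 0.0659 without PBS 1). With dorsomorphin against BMP2 alone none of the 17 passed in edgeR or DESeq2, and 2 were lower at an unadjusted p under 0.05. Of all tested genes, 4.28% rose and 4.44% fell there, and 9.38% rose and 11.5% fell in BMP2+DM against PBS. Against PBS, BMP2+DM gave 1 rise, Eif2b5 (0.27 ± 0.08, adjusted p = 0.03, lost without any one of the 4 libraries compared), and 1 fall, Eif2ak2.

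Cytosolic aminoacyl-tRNA synthetases load amino acids onto tRNAs and include known ATF4 targets. Of 20 such genes, 3 (15%) rose in BMP2 against PBS, beside 6.55% of all tested genes. In BMP2+DM against BMP2, 1 (5%) rose and 1 (5%) fell, beside 4.28% and 4.44%. In BMP2+DM against PBS, 4 (20%) rose, beside 9.38%. In either direction the shares were 15%, 10% and 20%, near the 15.8%, 8.73% and 20.9% of all tested genes. Leaving out 1 library gave 0 to 3 rises in BMP2 against PBS, 0 to 1 rise and 0 to 1 fall in BMP2+DM against BMP2, and 1 to 4 rises in BMP2+DM against PBS, and DESeq2 called 1 rise in BMP2 against PBS. Sars, the seryl-tRNA synthetase, had 267 and 247 CPM in BMP2+DM, against 217 and 209 CPM in BMP2 (0.27 ± 0.06, adjusted p = 0.00773) and 195 and 203 CPM in PBS (0.37 ± 0.06, adjusted p = 0.000191). Against BMP2 its call was lost without BMP2 2 (0.24, adjusted p = 0.0945) or BMP2+DM 1 (0.21, adjusted p = 0.0887). Of 19 tested genes for other amino acid transporters, 1 (5.26%) rose and 5 (26.3%) fell with BMP2, beside 6.55% and 9.29% of all tested genes. In BMP2+DM against BMP2, 2 (10.5%) rose, beside 4.28%. In BMP2+DM against PBS, 4 (21.1%) rose and 3 (15.8%) fell, beside 9.38% and 11.5%. Leaving out 1 library gave 1 rise and 3 to 5 falls with BMP2, 0 to 2 rises and 0 to 1 fall in BMP2+DM against BMP2, and 3 rises and 3 falls in BMP2+DM against PBS. Slc7a2, a carrier of arginine and lysine, had 88.8 and 82 CPM in BMP2, against 44.9 and 46.8 CPM in PBS (0.90 ± 0.10, adjusted p = 2.64e-06), whereas Slc7a1 of the same family had −0.16 ± 0.08 (adjusted p = 0.202). Slc6a9, the glycine transporter GLYT1, had 13 and 12.9 CPM in BMP2, against 24.3 and 22.6 CPM in PBS (−0.86 ± 0.17, adjusted p = 0.00149), and both calls held without any single library.

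Other genes of one-carbon, glycine, proline, glutamine and glutathione metabolism numbered 26. With BMP2, 5 (19.2%) rose and 1 (3.85%) fell, beside 6.55% and 9.29% of all tested genes. In BMP2+DM against BMP2, 2 (7.69%) rose, beside 4.28%. In BMP2+DM against PBS, 5 (19.2%) rose and 2 (7.69%) fell, beside 9.38% and 11.5%. Leaving out 1 library gave 3 to 5 rises with BMP2, 0 to 2 rises in BMP2+DM against BMP2, and 2 to 5 rises and 1 to 2 falls in BMP2+DM against PBS. Got1, the cytosolic aspartate aminotransferase, had 271 and 276 CPM in BMP2+DM, 230 and 230 CPM in BMP2, and 137 and 143 CPM in PBS. Its log2 fold change was 0.72 ± 0.06 for BMP2 against PBS (adjusted p = 1.04e-07) and 0.97 ± 0.06 for BMP2+DM against PBS (adjusted p = 1.29e-09). Glul, glutamine synthetase, had 76.7 and 76.4 CPM in BMP2, against 118 and 123 CPM in PBS (−0.66 ± 0.08, adjusted p = 1.48e-05).

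Of 17 genes of mTORC1 and amino acid sensing, 3 (17.6%) rose and 1 (5.88%) fell with BMP2, beside 6.55% and 9.29% of all tested genes. The fall was in Deptor, an inhibitor of mTOR, with 1.91 and 1.53 CPM in BMP2, against 5.57 and 9.49 CPM in PBS. Its counts were low, at 21 and 16 in BMP2 and 78 and 109 in PBS. In BMP2+DM against BMP2, 2 (11.8%) rose and 1 (5.88%) fell, beside 4.28% and 4.44%. In BMP2+DM against PBS, 4 (23.5%) rose and 1 (5.88%) fell, beside 9.38% and 11.5%. Leaving out 1 library gave 1 to 3 rises and 0 to 1 fall with BMP2, 0 to 2 rises and 1 fall in BMP2+DM against BMP2, and 2 to 4 rises and 1 fall in BMP2+DM against PBS. Ddit4, an inhibitor of mTORC1 also known as REDD1, had 39.6 and 41 CPM in BMP2+DM, against 69.5 and 70 CPM in BMP2 (−0.79 ± 0.11, adjusted p = 0.000165), a direction opposite to that of Ddit3. With BMP2 alone it stood above PBS, where it had 52.3 and 44 CPM (0.53 ± 0.11, adjusted p = 0.00223, and 0.42 with adjusted p = 0.0552 without PBS 2).

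Genes of the endoplasmic reticulum chaperones and the unfolded protein response were lower with both agents. Of 16 genes, 7 (43.8%) fell in BMP2+DM against BMP2, beside 4.44% of all tested genes. In BMP2 against PBS 6 (37.5%) fell, beside 9.29%, and in BMP2+DM against PBS 10 (62.5%) fell, beside 11.5%. The medians were −0.24, −0.18 and −0.44 in that order. None rose in edgeR or DESeq2, and at an unadjusted p under 0.05 the rises were 0, 1 and 0 in the same order of comparisons. When 1 library was left out, the falls numbered 4 to 7, 1 to 7 and 10. Without both PBS 1 and BMP2 1 they numbered 2, 0 and 8, and at a minimum fold of 1.5 the count was 0 in all 3 comparisons, with 1 lower at an unadjusted p under 0.05 in BMP2+DM against PBS. Hspa5, the chaperone BiP and the usual marker of endoplasmic reticulum stress, had 794 and 791 CPM in BMP2+DM, against 946 and 943 CPM in BMP2 (−0.25 ± 0.05, adjusted p = 0.00305) and 968 and 976 CPM in PBS (−0.30 ± 0.05, adjusted p = 0.00029). Calr, which encodes calreticulin, had 701 and 711 CPM in BMP2+DM, against 931 and 882 CPM in BMP2 (−0.36 ± 0.05, adjusted p = 0.000188). Both calls against BMP2 were kept without any single library.

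Of 10 genes of mitochondrial proteostasis, a group raised when mitochondrial protein import or folding is disturbed, 6 rose in BMP2 against PBS and 6 in BMP2+DM against PBS, with 3 to 6 and 3 to 5 rises when 1 library was left out, and 2 and 4 without both PBS 1 and BMP2 1. The 6 rises were 60% of the list in both comparisons with PBS, beside 6.55% and 9.38% of all tested genes. DESeq2 called 3 rises in BMP2 against PBS and 5 in BMP2+DM against PBS. At a minimum fold of 1.5 none of the 10 passed in either comparison. Hspa9, a mitochondrial chaperone, had 818 and 839 CPM in BMP2+DM, 755 and 774 CPM in BMP2, and 566 and 549 CPM in PBS (0.45 ± 0.05 for BMP2 against PBS, adjusted p = 4.44e-06). Hspd1, the chaperonin HSP60, had 547 and 549 CPM in BMP2+DM, 620 and 607 CPM in BMP2, and 448 and 435 CPM in PBS (0.48 ± 0.05 for BMP2 against PBS, adjusted p = 1.21e-06). In BMP2+DM against BMP2, 1 of the 10 fell (10%), beside 4.44% of all tested genes. It was Hspd1, whose call was lost without any one of the 6 libraries. Of 13 genes linked to CHOP or to autophagy, 3 (23.1%) fell with BMP2, beside 9.29% of all tested genes. In BMP2+DM against BMP2, 2 (15.4%) rose, beside 4.28%. Both rises, Sqstm1 and Map1lc3b, were in the autophagy part of the list. In BMP2+DM against PBS, 3 (23.1%) rose and 2 (15.4%) fell, beside 9.38% and 11.5%. Leaving out 1 library gave 1 to 3 falls with BMP2, 1 to 2 rises in BMP2+DM against BMP2, and 1 to 3 rises and 0 to 1 fall in BMP2+DM against PBS. Map1lc3b, which encodes the autophagosome protein LC3B, had 126 and 113 CPM in BMP2+DM, against 89.5 and 85.3 CPM in BMP2 (0.45 ± 0.08, adjusted p = 0.00181).

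**Figure D4:**
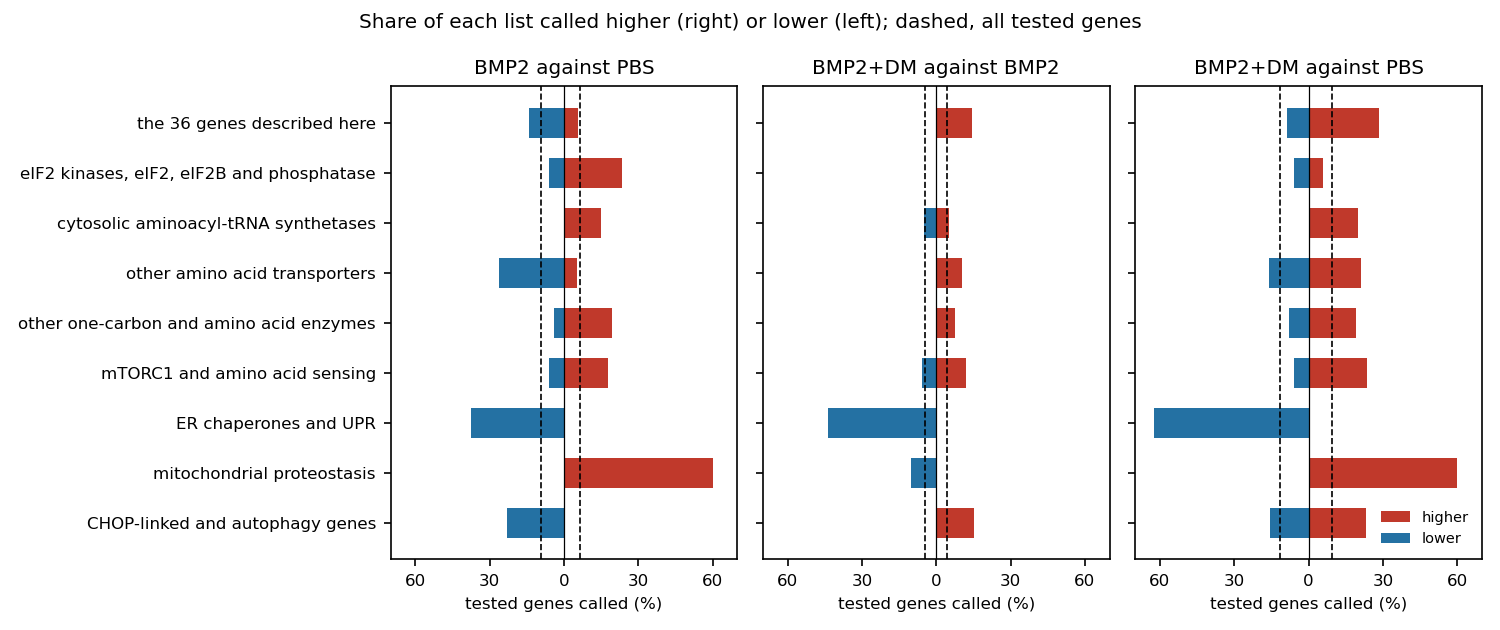
Share of tested genes that passed the test, in percent, for the 36-gene set and the 8 further lists in the 3 comparisons, with rises to the right of 0 and falls to the left. Dashed lines mark the shares over all 14378 tested genes. In BMP2+DM against BMP2, 14.3% of the set rose and 43.8% of the endoplasmic reticulum list fell, beside 4.28% and 4.44% of all genes.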

How the data were processed

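For each of the 6 libraries the authors deposited a file of raw counts by gene symbol. The submitters' processing notes name mm10 and the tools STAR, HTSeq, Trimmomatic, FastQC and DESeq2; versions, annotation and counting strand are not given in sources used here. The 5 summary lines of each file (53.8% to 54.2% of its total) name no gene and were left out. Of 32245 symbols, 14378 passed filterByExpr (minimum count 10, minimum total 15).

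All 6 libraries were fitted together by group with edgeR 4.0.16 (R 4.3.3), TMM factors and the quasi-likelihood F test, with 3 residual degrees of freedom. Benjamini-Hochberg adjustment ran over all tested genes at a threshold of 0.05. Values are log2 fold change ± SE, with SE = |log2 fold change|/√F. Levels are CPM on TMM-adjusted library sizes; levels per kb use exonic length in GENCODE vM21 (mm10), which held 97.5% of symbols. Libraries of a group differed by more than sampling noise (chi-square per degree of freedom 3.58 to 4.27 without the repeat models). The code was tested on simulated data.

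The members, lists and tests were chosen with earlier results of these data known. Genes named are all members and, of each further list, up to 4 called genes by smallest p. Eif2ak1, Eif2ak3 and Eif2ak4 were added after their values were seen. Other normalizations, filters, DESeq2 1.42.0, the 2 compared groups alone, a replicate block, a minimum fold and left-out libraries were tried. The same alternatives were applied to the further lists after seeing the data. Proteins were not used here.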

Additional observations from a re-analysis of the deposited data

How the results depend on the processing

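The direction of every called change among the 36 genes was kept under all alternatives run. Across genes, the difference between replicates 1 and 2 correlated little between groups. The values were 0.079 for BMP2 and PBS, −0.00296 for BMP2+DM and BMP2, and −0.0287 for BMP2+DM and PBS. The labels do not say whether replicate numbers pair the libraries, and PBS 1 and BMP2 1 both held more repeat-model reads. With a replicate block, 1 gene of the set rose and 5 fell with BMP2, and 6 rose in BMP2+DM against BMP2. In BMP2+DM against PBS, 9 rose and 3 fell. The block lost Psph in both comparisons with PBS (adjusted p = 0.0556 and 0.0503) and gained Slc1a5 in BMP2+DM against BMP2 (0.35, adjusted p = 0.0367).

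In BMP2 against PBS, DESeq2 called 1 rise in the set. Leaving out 1 library gave 1 to 3 rises and 3 to 6 falls (475 to 1028 and 843 to 1442 over all genes), with medians of −0.129 to −0.0503. In BMP2+DM against BMP2 it gave 4 to 6 rises (over all genes 314 to 528 rises and 356 to 553 falls) and medians of 0.11 to 0.165. In BMP2+DM against PBS it gave 4 to 9 rises and 2 to 6 falls (over all genes 742 to 1298 and 1085 to 1630) and medians of 0.0344 to 0.0655. A lone library left in a group is assumed to vary like the others.

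With no filter on low counts, 1 gene (Slc7a1) fell in BMP2+DM against BMP2 and 5 fell in BMP2+DM against PBS. The median for BMP2+DM against PBS was 0.0593 with at least 1 CPM in 2 libraries and 0.0553 with the 2 compared groups alone. A minimum fold of 1.5 left 0 rises and 0 falls in the set and, over all genes, 56 rises and 235 falls for BMP2 against PBS, 38 and 60 for BMP2+DM against BMP2, and 95 and 329 for BMP2+DM against PBS.

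Without both PBS 1 and BMP2 1, fewer samples left 0 rises and 1 fall in the set with BMP2 (171 and 403 over all genes, median −0.11), 2 rises in BMP2+DM against BMP2 (137 and 176 over all genes, median 0.131), and 4 rises and 4 falls in BMP2+DM against PBS (533 and 855 over all genes). The falls in BMP2+DM against PBS then included Mthfd2 (−0.48, adjusted p = 0.0459).

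Values that changed sign belonged to uncalled changes. Without both PBS 1 and BMP2 1 these were, for BMP2 against PBS, Ddit3 (0.11), Slc7a11 (−0.17), Slc7a5 (0.0221) and Cth (−0.72); for BMP2+DM against BMP2, Trib3 (0.11), Chac1 (0.30) and Sesn2 (−0.12); and for BMP2+DM against PBS, Atf4 (−0.0145) and Ppp1r15a (0.057). Over the fits without 1 library, BMP2 against PBS gave −0.11 to 0.0426 for Ddit3, −0.13 to 0.36 for Slc7a11, −0.56 to 0.54 for Cth, −0.41 to 0.36 for Slc7a3, −0.0984 to 0.0187 for Slc1a4, −0.30 to 0.0087 for Cebpb and −0.0123 to 0.0384 for Phgdh. BMP2+DM against BMP2 gave −0.18 to 0.11 for Trib3, −0.36 to 0.30 for Chac1, −0.12 to 0.16 for Sesn2, −0.0455 to 0.0332 for Psph, −0.0594 to 0.0752 for Mthfd2, −0.22 to 0.89 for Cth and −0.42 to 0.0177 for Pycr1. BMP2+DM against PBS gave −0.0178 to 0.0854 for Atf4, −0.18 to 0.0573 for Ppp1r15a, −2.53 to 0.15 for Cbs, −0.0319 to 0.0401 for Eif4ebp1, −0.0123 to 0.0612 for Asns and −0.0361 to 0.61 for Cth. The cause of these changes was not tested. Depth limits low genes such as Cbs, Cth and Fgf21.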
